A study of Homo sapiens with 6 samples.

Results

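The comparison described here is that of the Twist line on the Cmp302 10 µM array with the same line on the DMSO array. It takes 2 of the 6 arrays of the series, chosen by their titles, 1 array per group. Both arrays hold RNA from HMLE, an immortalised human mammary epithelial cell line, after infection with a pBabe-Twist retrovirus. Twist is a transcription factor that drives epithelial cells into a mesenchymal state. The other line was HMLE infected with a pBabe-shGFP retrovirus, called the control line below. All cells grew in medium with insulin, hydrocortisone, EGF and serum. The titles and the treatment protocol give DMSO, 5 µM or 10 µM Cmp302 for 6 h, in both lines. The source names and treatment tags of the Cmp302 arrays give 2 µM for 4 h and 8 h instead. Group names follow the titles here, and it is not settled if the second level stands for a higher dose or a later time. Twist was carried by a retroviral vector, and the labels do not say whether the lines are pools or single clones.

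Cmp302 is a small molecule studied for its action on cells that have passed through an epithelial to mesenchymal transition, and the series is concerned with endoplasmic reticulum (ER) stress. In ER stress, unfolded proteins in the ER switch on sensors that slow translation and raise chaperones, amino acid supply and stress transcription factors such as ATF4 and CHOP. Mesenchymal cells secrete much collagen and matrix and adhere through cadherins and integrins, and Wnt, Hedgehog and growth factor signals act on them. These textbook roles are the background for the gene groups below.

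The unit throughout is the log2 signal of a Human Genome U133 Plus array, on which 1 unit is a doubling. Of 54675 probe sets, 41091 carried a single gene symbol, and the brightest one per gene gave 19775 genes. Signals under 3.71, the median of all values, were set to that floor. A gene was measured if it lay above the floor on either array, which 11935 genes did. A difference is the 10 µM log2 signal minus the DMSO log2 signal, and "higher" or "lower" below means past 2-fold, a difference of at least 1 in size. With 1 array per group this difference has no replicate error and no test. The only error available per gene is the spread between its probe sets, whose median SD was 0.43 over 6331 genes with several measured probe sets.

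The labelled cell type was checked by markers. In the Twist line KRT5, EPCAM and CDH1 lay at the floor on the 10 µM and DMSO arrays, whereas they read 13.38, 12.62 and 13.24 in the control line with DMSO. VIM read 13.77 at 10 µM and 13.20 with DMSO in the Twist line, and ZEB1 read 12.72 and 13.16. In the control line with DMSO they read 11.68 and 6.23. FN1 and CDH2 read 13.49 and 12.05 with DMSO in the Twist line, against 13.24 and 10.95 with DMSO in the control line. Other epithelial markers were above the floor in the Twist line: KRT18 read 9.36 at 10 µM and 8.26 with DMSO, past 2-fold, and KRT8 read 5.68 and 5.51, against 13.37 and 12.37 in the control line with DMSO. Of 9 measured basal and luminal markers 1 was higher and 1 lower, CD24 at 7.71 with 10 µM and 8.80 with DMSO. The Twist line thus carried mesenchymal markers, of which VIM, FN1 and CDH2 were also high in the control line. It lacked KRT5, EPCAM and CDH1, but not every epithelial marker. TWIST1 read 11.35 at 10 µM and 11.57 with DMSO in the Twist line, against 10.70 in the control line with DMSO. Of 14 matched markers of blood, endothelial and fat cells, 3 lay above the floor in the Twist line and none was past 2-fold, with FABP4 at 10.62 at 10 µM and 10.89 with DMSO, and PECAM1 at 7.54 and 7.64 in that order. In bulk RNA of this kind, fewer cells of a type and less RNA per cell cannot be told apart.

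The Twist line differed widely between the 10 µM and DMSO arrays. Of 11935 measured genes, 959 were higher (8.04%) and 1012 lower (8.48%), and the median difference was -0.01. The control line gave far fewer on its own 10 µM and DMSO arrays, 25 of 11973 genes higher (0.209%) and 29 lower (0.242%). The SD of the differences was 0.78 in the Twist line and 0.32 in the control line. In the Twist line 127 genes were higher past 4-fold and 101 lower, while past 8-fold there were 36 higher and 10 lower. The 6 stress and inflammatory lists are amino acid supply, targets of ATF4 and CHOP, ER chaperones, ER-associated degradation, NF-kB genes and interferon genes. Leaving these lists aside, 897 of 11814 genes were higher and 1009 lower. The lists hold few of the 11935 measured genes, so they could hold only a small part of the genes past 2-fold. A gene on none of them can still belong to a stress or inflammatory response. Counts of the gene lists below are to be read against the 8.04% higher and 8.48% lower over all genes, and a share near these is not a result about the list. The lists were chosen with earlier results of these data known, so a share above these is a description and no test.

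**Figure D1:**
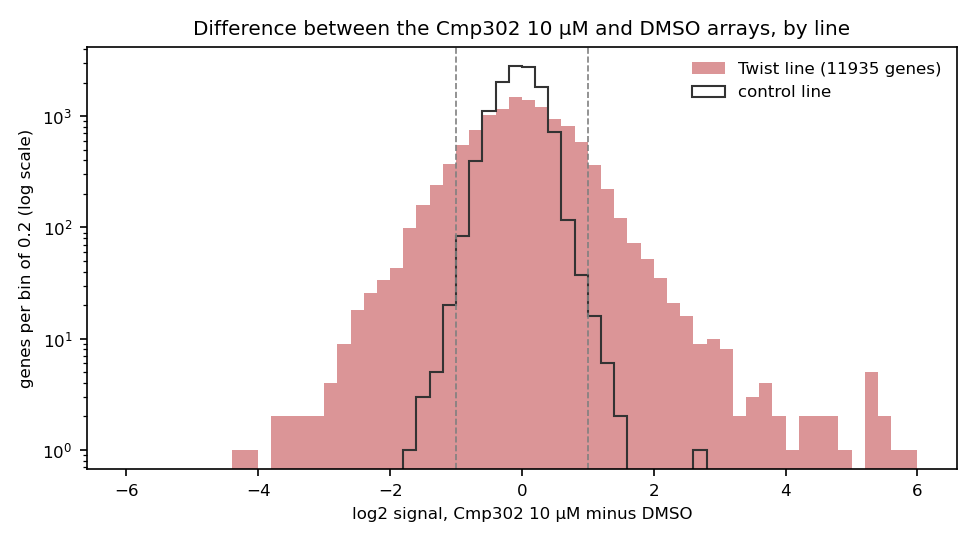
Distribution of the log2 difference between the 10 µM and DMSO arrays per gene, as genes per bin of 0.2 on a log axis, filled for the Twist line and outlined for the control line. The dashed lines mark 2-fold: 959 genes of the Twist line lie above and 1012 below, against 25 and 29 in the control line.

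One reading of RNA quality moved with this comparison. The probe sets at the 3′ end of GAPDH and ACTB exceeded those in the middle of the transcripts by 0.445 at 10 µM and by 0.955 with DMSO in the Twist line. In the control line the same contrast was 0.835 at 10 µM and 0.28 with DMSO. The contrast difference was therefore -0.51 in the Twist line and 0.555 in the control line, in opposite directions. The 1012 lower genes had a median difference of 0.21 in the control line, and the 959 higher genes one of -0.23. When each gene's slope on the contrast over the control-line arrays was taken off, 694 of the lower and 608 of the higher genes were still past 2-fold. In those arrays the contrast rose with the level, from 0.28 with DMSO to 0.45 at 5 µM and 0.835 at 10 µM. The slope therefore cannot tell RNA quality from the control line's own response to Cmp302, here and wherever it is used below. The part of the contrast in single results was not tested. Probe sets of a gene also differed: among 588 lower genes with several measured probe sets, 359 had none going the other way, and among 467 higher genes 354. Over all 6331 measured genes with several measured probe sets, 3164 had none going the other way. When a gene was read by the median of its probe sets instead of the brightest, 836 genes were higher and 653 lower. Of 76 genes named in the text that were past 2-fold and had several measured probe sets, 38 had at least 1 probe set inside 2-fold or opposite.

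A fit over all 6 arrays gave the only test. It was limma's moderated test of a straight line over DMSO, 5 µM and 10 µM in each line, with 2 residual degrees of freedom. Its error is the departure from that line and not the spread between replicates. In the Twist line 1339 of 12482 genes rose (10.7%) and 1416 fell (11.3%) at a Benjamini-Hochberg adjusted p under 0.05. The slope per level restates the difference between the 10 µM and DMSO arrays on another scale, so a call for a gene chosen by that difference is no support for it. Genes at the floor on all 3 control-line arrays add no residual there. They were 542 of all 12482 genes tested, 96 of the 1339 that rose and 114 of the 1416 that fell. The difference of slopes between the lines passed in 92 genes above (0.737%) and 101 genes below (0.809%) the control line, of which 18 and 25 lay at the floor on all 3 control-line arrays. These calls depended on the control-line arrays: without the control-line DMSO, 5 µM or 10 µM array, each left out alone, limma called 0 genes in either direction in both tests. At an unadjusted p under 0.05 the counts were 2158, 2158 and 2161 genes then, against 5293 with all arrays. For this reason the groups below are described by levels and differences, not by these calls.

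Among genes above the floor on both arrays and with no probe set in the opposite direction, the 30 with the lowest difference ranged from -4.34 in EEIG2 to -2.47 in GLDC, a subunit of the glycine cleavage system. EEIG2 read 9.91, 6.82 and 5.57 with DMSO, 5 µM and 10 µM in the Twist line, and between 7.75 and 8.69 in the control line. SERTAD4 read 10.66, 8.62 and 6.63 in the Twist line and between 9.13 and 9.36 in the control line, with probe sets from -5.05 to -0.98. In both genes the 10 µM array had the lowest signal of the 6. FRY, a microtubule-binding protein, read 8.56, 6.91 and 4.94 in the Twist line, with a difference of -3.62 on the brightest probe set and of -0.79 on the one that differed least. The other members of this set include signalling receptors, adhesion molecules, cell cycle factors and chromatin proteins, taken up in turn below. Of the 1012 lower genes, 92 (9.09%) lay at the floor on all 3 control-line arrays, against 693 of all 11935 measured genes (5.81%) and 61 of the 959 higher genes (6.36%).

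**Figure D2:**
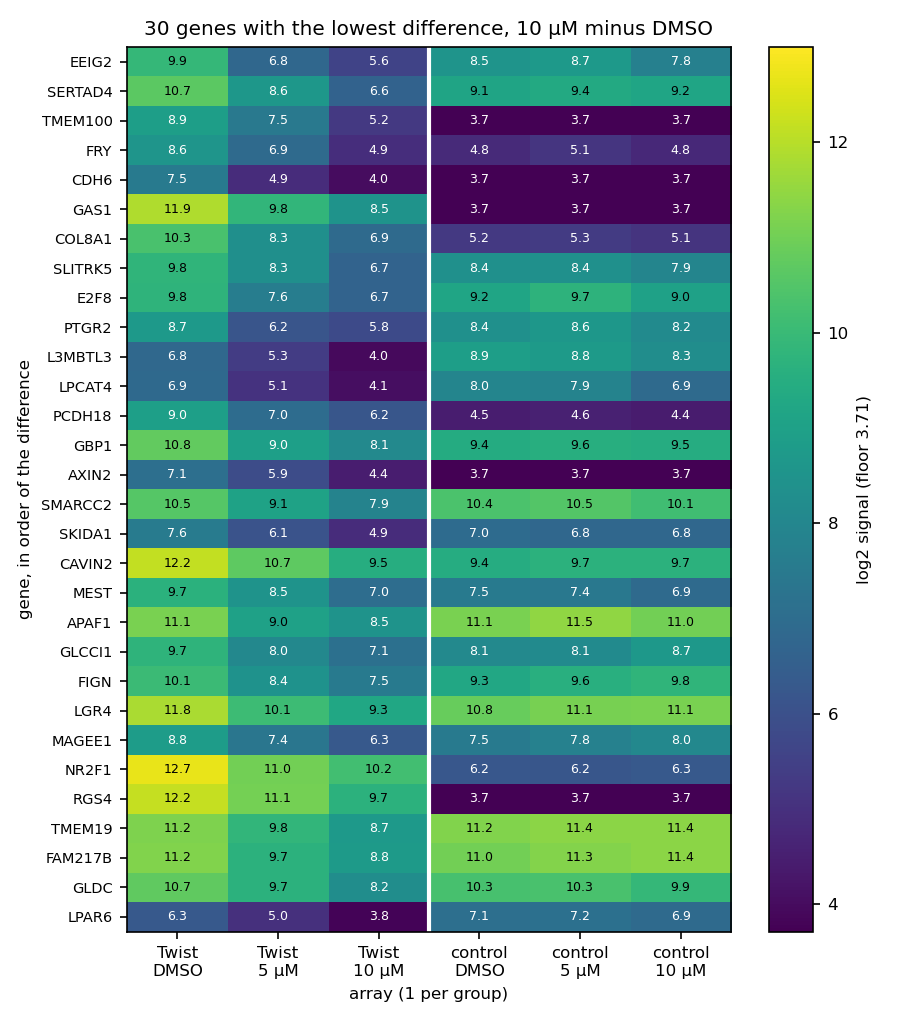
Log2 signal of the 30 genes with the lowest difference between 10 µM and DMSO in the Twist line, 1 column per array, Twist line left and control line right, each in the order DMSO, 5 µM and 10 µM. In EEIG2 the Twist line reads 9.91, 6.82 and 5.57, while genes such as TMEM100, CDH6, GAS1, AXIN2 and RGS4 lie at the floor of 3.71 on the control-line arrays.

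Wnt signalling genes lay mostly below their DMSO values, and 34.6% were lower, against 8.48% of all genes. Wnt ligands bind Frizzled receptors, R-spondins acting through LGR receptors strengthen the signal, and AXIN2 is both a scaffold of the beta-catenin destruction complex and a feedback target of the pathway. Of 26 measured members of the list, 9 were lower and 1 higher, 21 lay below their DMSO value, and the median difference was -0.61, against 0.00 in the control line and -0.01 over all genes. AXIN2 read 7.12, 5.88 and 4.44 with DMSO, 5 µM and 10 µM in the Twist line and lay at the floor on the control-line arrays. Its difference was -2.68. LGR4 read 11.82, 10.07 and 9.26 in the Twist line and between 10.85 and 11.14 in the control line, with a difference of -2.56 on the brightest probe set and -0.18 on its other measured one. The Frizzled receptors FZD1, FZD6 and FZD7 differed by -1.56, -1.54 and -1.31, so receptors of both kinds were lower. The member that was higher was the ligand WNT9A, at 9.35 with 10 µM and 7.18 with DMSO in the Twist line.

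Hedgehog signalling had 4 lower members (33.3%, against 8.48% of all genes) and 1 higher of 12 measured. In this pathway the receptor PTCH1 holds back signalling until a ligand binds, GAS1 is a co-receptor, HHIP binds and withholds the ligand, and GLI2 is a transcription factor at the end. GAS1 read 11.91, 9.84 and 8.49 with DMSO, 5 µM and 10 µM in the Twist line and lay at the floor on the control-line arrays. Its difference was -3.42 on the brightest probe set and -0.19 on the other. GLI2 read 5.25 at 10 µM and 7.04 with DMSO, HHIP 9.33 and 10.55, and PTCH1 7.31 and 8.46. DISP1, which releases Hedgehog ligand from the cell that makes it, was higher at 6.20 against 4.75. The median of the list was -0.32 in the Twist line and 0.00 in the control line.

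Adhesion molecules were lower more often than all genes in both families listed. None of 23 measured cadherins, protocadherins and FAT genes was higher and 8 were lower (34.8%), with a median of -0.48. CDH6, a classical cadherin, read 7.55, 4.90 and 4.02 with DMSO, 5 µM and 10 µM in the Twist line, close to the floor at 10 µM and at the floor in the control line. CDH11, the cadherin typical of mesenchymal cells, read 8.98 at 10 µM and 10.77 with DMSO. The protocadherin PCDH18 differed by -2.76, and CELSR2, a cadherin of planar cell polarity, by -1.66. CDH2, the neuronal cadherin used as an EMT marker, read 11.98 at 10 µM and 12.05 with DMSO and was not among them. Of 12 measured integrins, receptors for matrix proteins, 4 were lower (33.3%) and none higher, with a median of -0.66 in the Twist line and 0.14 in the control line. ITGB8 read 5.97 and 7.76, ITGA6 11.42 and 12.47, and ITGA10 6.85 and 7.92 at 10 µM and with DMSO. With the control-line slope on the contrast taken off, the integrin median was -0.43 and 2 integrins were lower.

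Among secreted matrix genes 8 of 34 were lower (23.5%) and 1 was higher, with a median of -0.46. COL8A1, a chain of type VIII collagen, read 10.32, 8.34 and 6.92 with DMSO, 5 µM and 10 µM in the Twist line and between 5.11 and 5.34 in the control line. COL1A2, a chain of the main fibrillar collagen, read 8.66, 7.72 and 6.71 in the Twist line and lay at the floor in the control line. The proteoglycans LUM and DCN, which bind collagen fibrils, differed by -1.97 and -1.45. The probe sets of DCN ranged from -4.00 to -0.27. The list of general mesenchymal markers did not share this pattern: 2 of 26 were lower, 1 was higher, and the median was -0.18. Its lower members were PDGFRB at -1.48 and TCF4 at -1.05, and DDR2, a collagen receptor kinase, was higher at 1.60.

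Receptor tyrosine kinases and growth factors held members past 2-fold in both directions. Of 21 measured receptor kinases 4 were lower (19.0%) and 2 higher (9.52%, near the 8.04% of all genes). PDGFRA, a receptor for platelet-derived growth factor on mesenchymal cells, read 8.98, 9.17 and 7.04 with DMSO, 5 µM and 10 µM in the Twist line, so its signal was lower at 10 µM alone. IGF2R differed by -1.59 and EPHA4, an ephrin receptor, by -1.40. EGFR read 11.11 at 10 µM and 9.81 with DMSO. Of 18 measured ligands 4 were higher (22.2%) and 3 lower (16.7%). HBEGF, an EGFR ligand, read 8.77 at 10 µM and 6.38 with DMSO, while ANGPT1, the ligand of the TIE2 receptor, read 5.89 and 8.26. Inhibitors that feed back on MAP kinase signalling were split in the same way, with 5 of 20 lower, among them SPRED2 at -1.26 and SPRY1 at -1.08, and 3 higher, among them RASSF1 at 1.71 and the phosphatase DUSP16 at 1.62.

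Regulators of G protein and cyclic AMP signalling held 7 lower (25.9%) and 5 higher (18.5%) members of 27, and 4 and 3 with the control-line slope on the contrast taken off. RGS proteins shorten the active state of G proteins, and members went both ways. RGS4 read 12.19, 11.05 and 9.68 with DMSO, 5 µM and 10 µM in the Twist line and lay at the floor in the control line, a difference of -2.51 on the brightest probe set and of -0.79 on the one that differed least. RGS7, RGS2 and RGS20 differed by 2.01, 1.43 and 1.36, in the opposite direction. ADCY9, which makes cyclic AMP, differed by -1.73, and PDE4D, which breaks it down, by 2.01. LPAR6, a receptor for lysophosphatidic acid, read 3.82 at 10 µM, just above the floor, and 6.29 with DMSO.

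Genes of phospholipid remodelling and lipid mediators were lower in 7 of 28 measured members and higher in none, although the list median was only -0.12. The list holds 8 measured acyltransferases that build or rebuild phospholipids, a subset counted after its values were seen, of which 4 were lower and the others differed by -0.69 to 0.65. LPCAT4 read 6.88, 5.08 and 4.07 with DMSO, 5 µM and 10 µM in the Twist line, LPCAT2 read 9.69, 7.61 and 7.41, and LPCAT1 read 12.27, 11.73 and 11.20. LPCAT4 also read 6.94 at 10 µM and 7.95 with DMSO in the control line. PTGR2, which reduces prostaglandin metabolites, differed by -2.92, and PTGER2, a receptor for prostaglandin E, by -1.75. PTGS2, the inducible cyclooxygenase that starts prostaglandin synthesis, was instead at 8.24 with 10 µM and 3.72 with DMSO, although its other measured probe set differed by 0.21.

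Mitotic genes lay mostly below their DMSO values by less than 2-fold. Of 39 measured, 6 were lower (15.4%), 1 was higher, 33 lay below their DMSO value, and the median was -0.59, against 0.01 in the control line. KIF20A, a kinesin of cell division, read 11.62, 10.51 and 9.58 with DMSO, 5 µM and 10 µM in the Twist line and between 10.19 and 10.90 in the control line, where its difference was -0.70. ANLN, a scaffold of the contractile ring, read 13.24, 12.20 and 11.70 in the Twist line and between 12.44 and 12.79 in the control line. NEK2, a centrosome kinase, differed by -1.37, KIF20B by -1.24, cyclin A2 (CCNA2) by -1.14 and PRC1, which bundles spindle microtubules, by -1.08. With the control-line slope taken off, 4 mitotic genes were lower and the median was -0.52.

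Promoters of such genes are known to carry the cell cycle homology region (CHR) and CCAAT boxes, through which they are switched with the cell cycle. Those of 4 of the 6 lower mitotic genes are shown as examples. The promoters of KIF20B, which holds both elements, and of CCNA2, which holds a CCAAT box and no CHR match, are not shown. The windows run from 250 bases before to 50 bases after the gene start, from RefSeq on GRCh38.p14. Capitals mark the CHR, TTTGAA, or the CCAAT box, CCAAT, on either strand. The windows are chr7:36389612-36389911, plus strand for ANLN, chr15:90994486-90994785, minus strand for PRC1, chr1:211675572-211675871, minus strand for NEK2 and chr5:138178862-138179161, plus strand for KIF20A.
ANLN: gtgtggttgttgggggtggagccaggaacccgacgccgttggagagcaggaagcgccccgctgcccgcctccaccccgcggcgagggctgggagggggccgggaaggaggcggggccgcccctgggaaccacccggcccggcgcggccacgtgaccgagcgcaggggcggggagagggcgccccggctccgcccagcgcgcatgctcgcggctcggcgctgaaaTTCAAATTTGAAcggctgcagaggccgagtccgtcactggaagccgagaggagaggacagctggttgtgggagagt
PRC1: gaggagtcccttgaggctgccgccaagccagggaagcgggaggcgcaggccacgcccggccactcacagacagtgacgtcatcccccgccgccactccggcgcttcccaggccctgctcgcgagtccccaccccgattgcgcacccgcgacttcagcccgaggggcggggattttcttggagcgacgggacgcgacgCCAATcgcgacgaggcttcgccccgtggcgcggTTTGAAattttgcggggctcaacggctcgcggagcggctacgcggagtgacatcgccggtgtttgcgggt
NEK2: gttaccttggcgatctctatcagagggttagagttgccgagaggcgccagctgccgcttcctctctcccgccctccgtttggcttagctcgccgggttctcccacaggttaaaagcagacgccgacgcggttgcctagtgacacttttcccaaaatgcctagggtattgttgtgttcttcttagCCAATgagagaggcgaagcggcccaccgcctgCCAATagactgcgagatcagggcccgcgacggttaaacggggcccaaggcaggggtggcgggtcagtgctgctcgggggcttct
KIF20A: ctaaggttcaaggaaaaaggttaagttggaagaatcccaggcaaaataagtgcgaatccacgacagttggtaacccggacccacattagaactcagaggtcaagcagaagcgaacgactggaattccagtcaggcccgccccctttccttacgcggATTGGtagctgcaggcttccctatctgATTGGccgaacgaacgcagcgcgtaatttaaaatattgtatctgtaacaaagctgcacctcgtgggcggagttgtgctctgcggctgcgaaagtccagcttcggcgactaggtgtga
ANLN holds a pair of adjoining CHR matches, PRC1 holds 1 of each element, and NEK2 and KIF20A hold a pair of CCAAT boxes and no CHR match in this window. TTTGAA was found in 15.4% of all 27305 promoters and in 9.93% of those of measured genes. It was found in 23 of 35 mitotic promoters (65.7%) and in 3 of the 6 that were lower. It was found in 13.1% of the promoters of lower genes and in 6.84% of those of higher genes. CCAAT was found in 35.7% of all promoters and in 80.0% of mitotic ones. A match is a description of the letters and does not show a bound site.

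Genes of G1/S and DNA replication were less uniform, with 4 lower (10.0%, near the 8.48% of all genes) and 1 higher of 40. Their median of -0.16 turned positive, 0.12, when a gene was read by the median of its probe sets. E2F8, an E2F factor that represses transcription, read 9.76, 7.64 and 6.67 with DMSO, 5 µM and 10 µM in the Twist line and between 9.01 and 9.73 in the control line. Cyclin E2 (CCNE2) differed by -1.68, CDK2 by -1.19 and the replication clamp PCNA by -1.13, while CDC45 of the replicative helicase was higher at 1.03. Inhibitors of the cell cycle were not higher as a group: of 21 measured none was higher and 3 were lower, among them CDKN1B at -1.18. CDKN1A, the p21 inhibitor, read 12.58 at 10 µM and 11.76 with DMSO. Of 18 p53 targets 3 were higher and 1 lower. DNA repair genes had a median of -0.39, with 1 of 30 higher, the helicase BLM at 1.18, and 1 lower.

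Nuclear receptors and homeobox genes were lower more often than all genes, and chromatin regulators were not. NR2F1, an orphan nuclear receptor, read 12.70, 11.04 and 10.19 with DMSO, 5 µM and 10 µM in the Twist line and between 6.20 and 6.30 in the control line. The thyroid hormone receptors THRA and THRB differed by -1.50 and -1.23, and 5 of 22 nuclear receptors and coactivators were lower in all (22.7%), with 1 higher. Of 17 measured HOX and TALE homeobox genes, which set positional identity, 4 were lower (23.5%) and none higher: HOXC10 at -1.53, HOXB3 at -1.24, HOXC6 at -1.08 and HOXB2 at -1.05. L3MBTL3, a reader of methylated lysine, differed by -2.89. SMARCC2, a core subunit of the SWI/SNF remodelling complex, read 10.54, 9.07 and 7.86 in the Twist line and between 10.14 and 10.51 in the control line, although the difference of its 3 measured probe sets ranged from -2.68 to -0.02. The 3 TET enzymes, which oxidise methylated DNA, were all lower: TET1 at -2.35, TET2 at -1.38 and TET3 at -1.08, the last chosen after its value was seen. Other chromatin regulators were higher, among them JARID2 at 2.28, the acetyl-lysine reader BRD2 at 2.01 and the demethylases KDM7A and KDM6B at 1.84 and 1.28. Over the 60 chromatin regulators 6 were higher (10.0%) and 5 lower (8.33%), near the shares of all genes.

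Cell death genes showed few and opposed differences. APAF1, the scaffold of the apoptosome that activates an initiator caspase, read 11.13, 9.01 and 8.50 with DMSO, 5 µM and 10 µM in the Twist line and between 11.04 and 11.47 in the control line. Its other probe sets were not above the floor on these arrays. CASP8, the initiator caspase of death receptors, differed by -1.66, while DIABLO, which frees caspases from their inhibitors, differed by 1.20. No member of the BCL2 family was past 2-fold among 16 measured, and their median was 0.05. PMAIP1, a BH3-only protein, read 12.28 at 10 µM and 11.84 with DMSO on its brightest probe set, and another probe set differed by 2.80. Components of mRNA decay and microRNA silencing were lower in 3 of 33 (9.09%, near the 8.48% of all genes) and higher in none, with the silencing scaffolds TNRC6B and TNRC6A at -1.39 and -1.02. None of them was lower with the control-line slope on the contrast taken off.

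Some genes reached the floor at 10 µM, so that their differences are bounds. FRMD4B read 7.05 and 5.17 with DMSO and 5 µM and was at the floor at 10 µM, at least 3.34 log2 units lower, whereas the control line read between 9.82 and 10.01. OMD, a small proteoglycan of bone, lay at the floor at 10 µM and on every other array but DMSO of the Twist line, where it read 5.98. SALL2, a zinc finger transcription factor, read 5.70, 4.44 and the floor in that order of levels.

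Outside the stress and inflammatory lists, the genes with the highest differences included an epithelial junction gene, Notch targets, cytokine receptors and zinc finger genes. CLDN1, a claudin of tight junctions, read 5.84, 10.55 and 11.12 with DMSO, 5 µM and 10 µM in the Twist line and between 9.82 and 10.63 in the control line. The difference was 5.28 on its brightest probe set and 1.95 on the other. The rest of the epithelial junction list did not share it: of 17 measured, CLDN1 was the only higher member, cingulin (CGN) was lower at -1.62, and occludin (OCLN) read 6.93 at 10 µM and 6.13 with DMSO. CDH1 and EPCAM stayed at the floor.

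**Figure D3:**
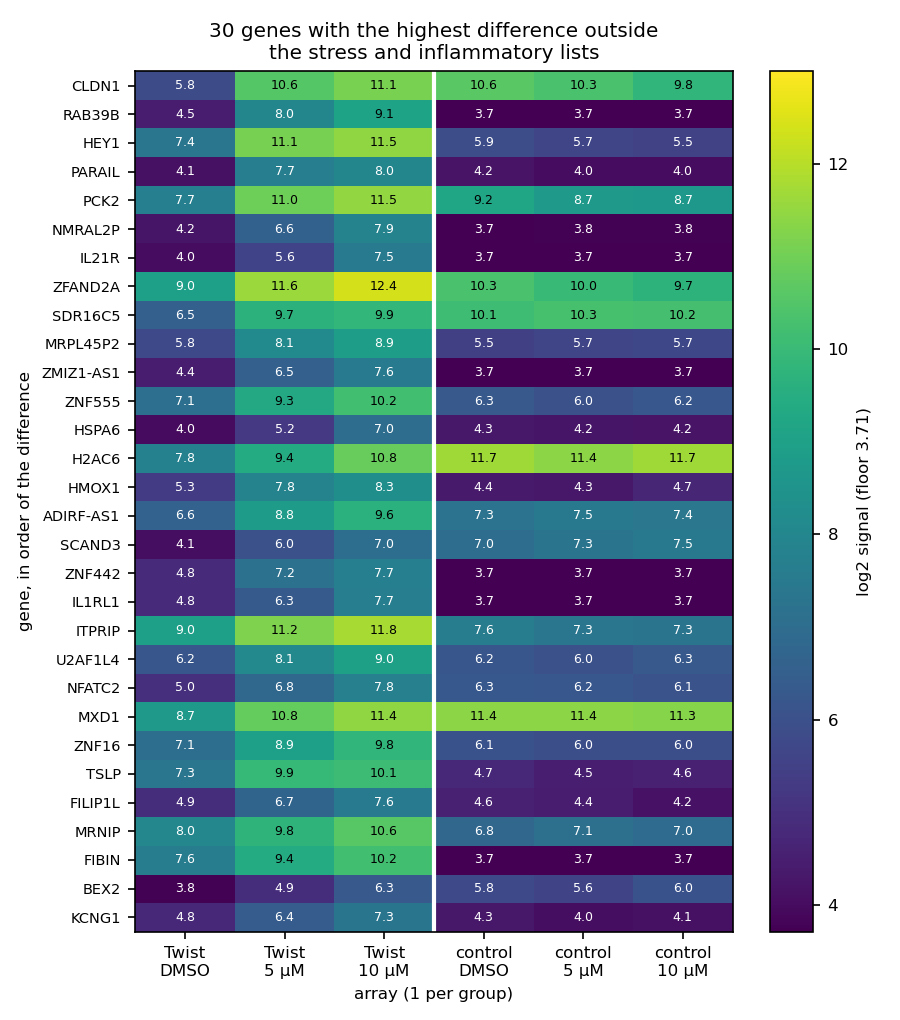
Log2 signal of the 30 genes with the highest difference between 10 µM and DMSO in the Twist line outside the 6 stress and inflammatory lists, 1 column per array, Twist line left and control line right, each in the order DMSO, 5 µM and 10 µM. CLDN1 reads 5.84, 10.55 and 11.12 in the Twist line, and RAB39B, ZNF442 and IL1RL1 lie at the floor of 3.71 on the control-line arrays.

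The Notch targets HEY1 and HES1, transcriptional repressors, were both far above their DMSO values. HEY1 read 7.36, 11.11 and 11.47 with DMSO, 5 µM and 10 µM in the Twist line and between 5.54 and 5.92 in the control line. HES1 was at the floor with DMSO and read 8.34 and 8.40 at 5 µM and 10 µM, at least 4.69 log2 units higher, and between 9.43 and 9.80 in the control line. Receptors and cofactors of the pathway did not share the direction: NOTCH3 differed by -1.04 and the coactivator MAML2 by -1.31, and 2 of 17 measured list members were higher and 2 lower.

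Among the genes with the highest differences, for which no list was made, were some with roles in immune and neurotrophin signalling. IL21R, the interleukin 21 receptor, read 4.02, 5.59 and 7.52 with DMSO, 5 µM and 10 µM in the Twist line, and IL1RL1, the interleukin 33 receptor, read 4.84, 6.34 and 7.70. Both lay at the floor on the control-line arrays. TSLP, an epithelial cytokine, read 10.07 at 10 µM and 7.34 with DMSO, and NFATC2, a transcription factor of calcium signalling, 7.76 and 4.98 on its brightest probe set, with another at a difference of 0.01. NGFR, the low-affinity neurotrophin receptor, read 6.53 at 10 µM and lay at the floor with DMSO, while the control line read between 6.46 and 6.61. C11orf96, a gene of little-known function, was at the floor with DMSO, read 6.59 and 9.15 at 5 µM and 10 µM, and stayed at the floor in the control line. It was at least 5.44 log2 units higher, more than CLDN1.

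Genes named as C2H2 zinc fingers (ZNF), many of which encode DNA-binding repressors, were higher more often than lower. Of 399 measured, 64 were higher and 20 lower, and the median was 0.21, against 0.01 in the control line and -0.01 over all genes in the Twist line. ZNF555 read 7.11, 9.32 and 10.20 with DMSO, 5 µM and 10 µM in the Twist line and between 6.01 and 6.30 in the control line. ZNF442 read 4.84, 7.17 and 7.71, and ZNF16 7.06, 8.94 and 9.82. The median of the group was 0.25 with the control-line slope taken off, with 60 higher and 17 lower members.

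Circadian clock genes had a median of 0.62, with 5 higher (27.8%, against 8.04% of all genes) and 2 lower (11.1%, against 8.48%) of 18. Of the higher ones 3 are transcriptional repressors: NFIL3 read 9.94, 11.47 and 12.02 with DMSO, 5 µM and 10 µM in the Twist line and between 9.27 and 9.58 in the control line, BHLHE40 differed by 1.79 and BHLHE41 by 1.23. The activator BMAL1 differed by 1.31, and the repressor CRY1 by -1.11. Immediate early factors had a median of 0.59, with 3 of 17 higher. MYC read 10.65 at 10 µM and 9.28 with DMSO in the Twist line, and 10.15 and 11.64 in the control line, and with the control-line slope taken off its difference was 0.01. MXD1, which competes with MYC for its partner MAX, read 8.69, 10.79 and 11.45 in the Twist line and between 11.30 and 11.40 in the control line. JUN and EGR1 differed by 0.87 and 0.89.

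Genes of cytosolic protein damage and oxidative stress were higher in part. Of 20 heat shock genes 4 were higher (20.0%) and none lower, with a median of 0.18. HSPA6, an inducible member of the HSP70 family, read 3.99, 5.24 and 7.04 with DMSO, 5 µM and 10 µM in the Twist line and between 4.21 and 4.30 in the control line. DNAJB1 and the small heat shock protein CRYAB differed by 1.07 and 1.45. ZFAND2A, a proteasome-associated protein induced by proteotoxic stress, read 12.40 at 10 µM and 8.96 with DMSO. Of 26 targets of NRF2, the factor that answers oxidants, 5 were higher (19.2%, against 8.04% of all genes) and none lower, with a median of 0.40. With the control-line slope on the contrast taken off, 3 were higher and the median was 0.08. HMOX1, heme oxygenase, read 5.32, 7.85 and 8.35 in the Twist line and between 4.31 and 4.70 in the control line, and SLC7A11, which imports cystine, differed by 1.88. The reductase AKR1C1 differed by 1.14 and KEAP1, the inhibitor of NRF2, by 0.90.

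Abundant housekeeping classes lay above DMSO in the Twist line and below it in the control line, while the RNA quality contrast differed by -0.51 and 0.555. Ribosomal proteins had a median of 0.69 in the Twist line and -0.40 in the control line over 19 genes. Medians in that order were 0.34 and -0.28 over 34 proteasome and ubiquitin genes, and 0.27 and -0.22 over 35 respiratory chain genes. The 19 include the mitochondrial ribosomal protein MRPL13, and the 35 include the regulators PPARGC1A, PPARGC1B, TFAM and NRF1. GAPDH read 13.68 at 10 µM and 12.32 with DMSO in the Twist line, and 12.77 and 13.58 in the control line. With the control-line slope on the contrast taken off, none of the genes of these 3 lists was higher. The medians were 0.36 for the ribosomal, 0.32 for the proteasome and ubiquitin and 0.08 for the respiratory chain list. The respiratory chain median was -0.17 without probe sets that can match several transcripts. The part of RNA quality in these values was not tested. Of 35 genes of glycolysis and hypoxia 6 were higher before this step and 1 after it, and PDK4, which holds back pyruvate oxidation, kept a difference of 1.40 both ways. Of 34 autophagy and lysosome genes 5 were higher (14.7%, against 8.04% of all genes) and 1 lower (2.94%, against 8.48%). After the step 3 were higher and 0 lower, and their median was 0.32, against 0.44 before it. ULK1, the kinase that starts autophagy, was at 1.32 before and 1.46 after the step. PCK2, the mitochondrial enzyme that makes phosphoenolpyruvate, read 11.48 at 10 µM and 7.71 with DMSO.

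Several classes hardly differed. None of 7 metallothioneins was past 2-fold, and MT2A read 14.06 at 10 µM and 13.63 with DMSO. Of 28 genes of cholesterol and fatty acid synthesis 1 was higher, ACSS2 at 1.05. Of 32 TGF-beta and BMP genes 2 were higher and 2 lower, among them the activin subunit INHBA at 2.19. Ion channels held 3 higher and 2 lower of 28, with the potassium channel subunit KCNG1 at 2.56 and the background potassium channel KCNK2 at -2.28.

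**Figure D4:**
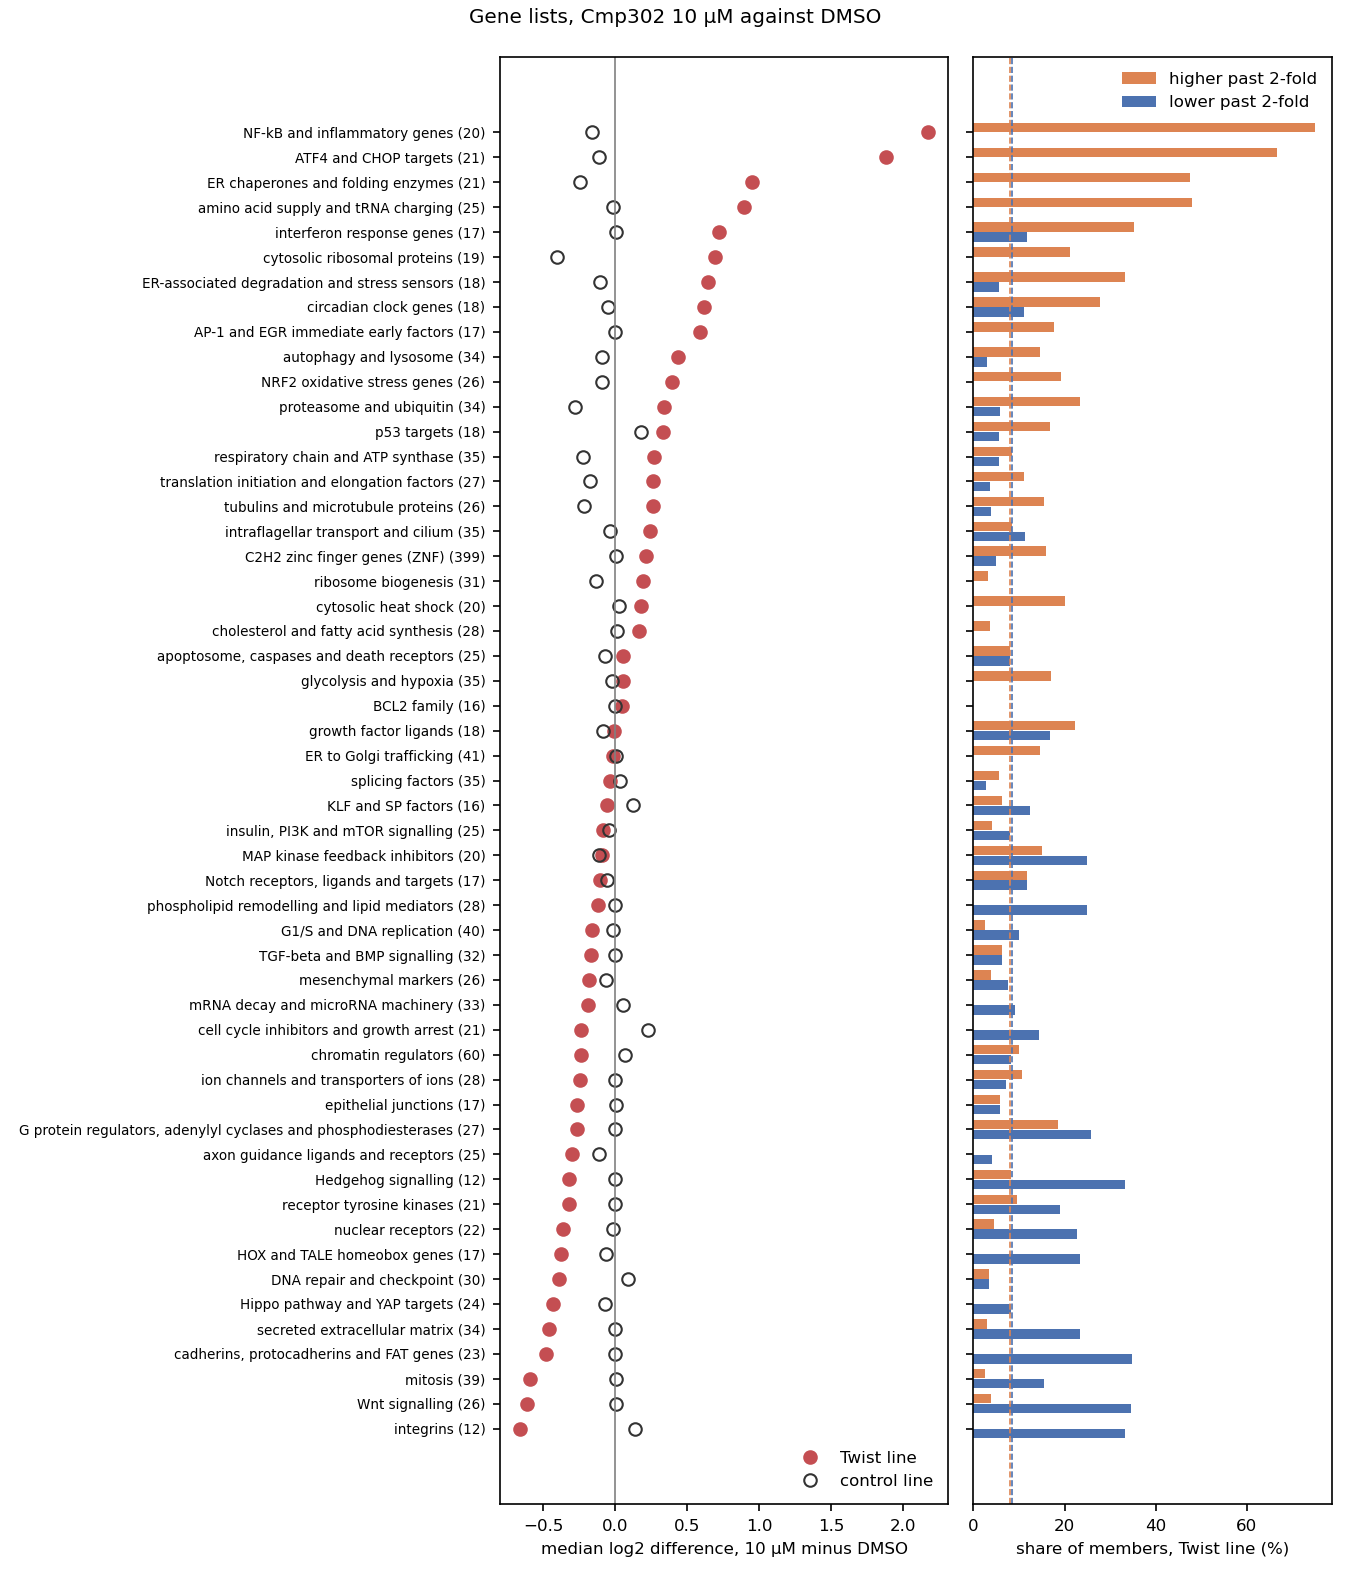
Gene lists with at least 10 measured members, ordered by the median log2 difference between 10 µM and DMSO in the Twist line, with the control line as open circles (left) and the share of members past 2-fold in the Twist line (right, dashed lines for all genes at 8.04% higher and 8.48% lower). NF-kB genes lie at the top with a median of 2.17 and integrins at the bottom with -0.66, while the control-line medians stay between -0.40 and 0.23.

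The NF-kB and the ATF4 and CHOP lists had the widest median shifts of the lists plotted. Of 21 ATF4 and CHOP targets 14 were higher, with a median of 1.88, of 21 ER chaperones 10, and of 20 NF-kB and inflammatory genes 15, with none lower in any of them. DDIT3, which encodes CHOP, read 6.16, 11.44 and 11.96 with DMSO, 5 µM and 10 µM in the Twist line and between 5.26 and 5.62 in the control line. IL6 read 9.45 at 10 µM and 4.08 with DMSO. Not all related genes moved together: EDEM3, which trims mannose from misfolded glycoproteins, was lower at -1.68, GBP1, an interferon-induced GTPase, differed by -2.71, and IFI44L, another interferon gene, by -1.48, whereas IFIT1 and OASL differed by 4.34 and 5.39.

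The ER stress response element was the rarest motif searched. It is CCAAT and CCACG separated by 9 bases, on either strand. It was found in 0.0806% of all promoters and in 0.133% of those of measured genes. The element was present in 6 of 19 ER chaperone promoters. Of the promoters that were available, 3 of 775 of higher genes and 0 of 799 of lower genes held it. The promoters of CRELD2, an ER protein that was higher at 2.01, and of FICD, which modifies the chaperone BiP, are shown because they hold it on opposite strands. CRELD2 lies at chr22:49918384-49918683, plus strand and FICD at chr12:108515027-108515326, plus strand, and capitals mark the element.
CRELD2: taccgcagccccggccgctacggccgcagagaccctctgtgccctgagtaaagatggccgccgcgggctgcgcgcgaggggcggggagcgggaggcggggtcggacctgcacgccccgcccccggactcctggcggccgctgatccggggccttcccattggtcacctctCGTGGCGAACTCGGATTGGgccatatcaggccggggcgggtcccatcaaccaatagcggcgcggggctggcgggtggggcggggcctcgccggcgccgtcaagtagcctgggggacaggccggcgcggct
FICD: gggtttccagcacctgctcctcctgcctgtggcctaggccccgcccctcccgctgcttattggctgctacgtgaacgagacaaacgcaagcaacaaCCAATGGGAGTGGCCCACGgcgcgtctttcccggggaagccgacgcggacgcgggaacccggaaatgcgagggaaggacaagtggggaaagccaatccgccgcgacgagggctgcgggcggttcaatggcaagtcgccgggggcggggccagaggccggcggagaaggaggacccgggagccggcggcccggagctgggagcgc
FICD was at the floor with DMSO and read 4.52 and 5.84 at 5 µM and 10 µM in the Twist line, and stayed at the floor in the control line. CRELD2 read 9.96, 11.60 and 11.97 in the Twist line and between 10.60 and 10.97 in the control line.

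Lower genes were longer than higher ones. Gene length, introns included, was taken from RefSeq on GRCh38.p14. Its median was 47.7 kb for 1010 lower genes, 22.3 kb for 957 higher genes and 29.7 kb for all 11919 measured genes with a length. Genes over 100 kb made up 27.0% of the lower genes, 12.5% of the higher genes and 18.0% of all. The share of lower genes was 5.72% up to 10 kb, 6.77% from 10 to 30 kb, 9.49% from 30 to 100 kb, 12.7% from 100 to 300 kb and 12.9% over 300 kb. The share of higher genes over the same classes was 9.74%, 9.34%, 7.05%, 5.77% and 4.82%. The control-line median lay between -0.06 and 0.01 in every class. With the control-line slope on the contrast taken off, the share of lower genes was still 5.72% in the shortest class and 12.4% in the longest, whereas the share of higher genes was 6.92%, 6.53%, 5.35%, 3.83% and 5.08% from the shortest to the longest class, a narrower range with its lowest value from 100 to 300 kb. Genes are not independent replicates, and these shares describe 1 pair of arrays.

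**Figure D5:**
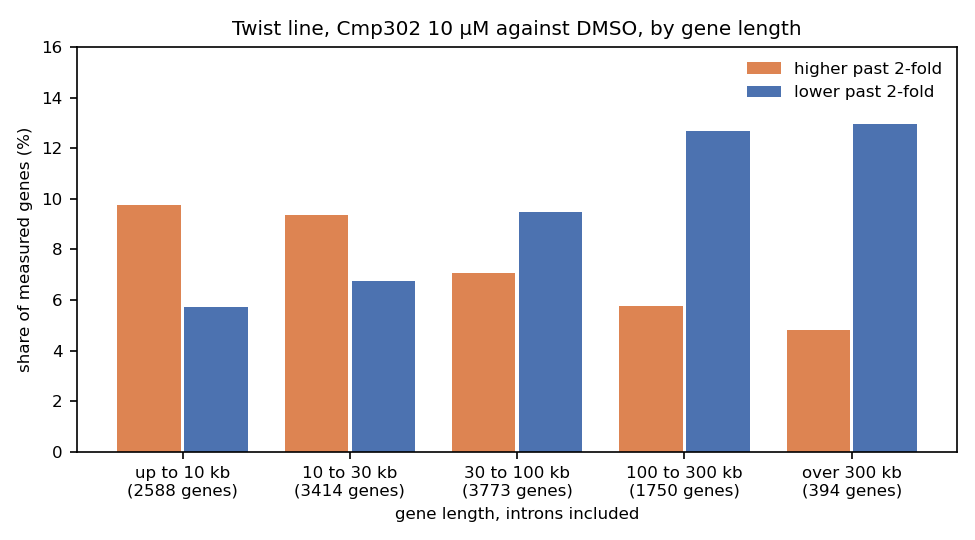
Share of measured genes of the Twist line that were higher or lower past 2-fold between 10 µM and DMSO, by gene length class. The share of lower genes is 5.72% in the shortest class and 12.9% in the longest, and that of higher genes 9.74% and 4.82%.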

How the data were processed

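RNA of the 6 arrays was read from the deposited table of log2 signals. The log2 scale was judged from the range of the deposited values, since the labels name no unit. The only software recorded, per the submitters' processing notes, is GCOS 1.2. The sources used here do not state how background, summarisation and scaling were handled. Medians of the deposited columns lay between 3.69 and 3.74. Of the probe sets, 62 controls were left out, as were 1801 with several symbols and 11721 with none. Each array was shifted by between -0.03 and 0.01 so that the brighter probe sets had a median log2 ratio of 0 to the mean array.

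Gene symbols came from the platform annotation supplied. The fit used limma 3.58.1 in R 4.3.3 with lmFit and eBayes with the signal trend, over genes that exceeded the floor on 2 or more arrays, with line, level coded 0, 1 and 2, and their interaction. It was tested on simulated data with 200 changed genes. There it recovered 59% of Twist-line slopes of 1 log2 unit per level and 91% of slopes of 2. For the difference of slopes the shares were 33% and 69%. The simulated noise of a gene was of equal size in both lines. Calls on the real arrays depended on the control-line arrays, so these shares need not hold for them. Tables were made with Python 3.11.15 and pandas 2.3.3. Samples were grouped by title. Array number, not depth, limits the precision.

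Named genes were those above the floor on both arrays with no measured probe set in the opposite direction: the 30 lowest, the 30 highest outside the 6 stress and inflammatory lists, up to 6 members per list with the widest difference, and the 10 widest bounds each way. Markers, TWIST1, TET3, CDH2 and genes of the housekeeping comparison outside these sets were added by name. The members and the 57 gene lists, with 1548 of 1692 distinct symbols matched, were chosen with earlier results of these data known, and 1 list is not reported here. Alternatives were the deposited scaling, quantile normalization, floors at the 35th and 65th percentiles, the median over probe sets, leaving out cross-matching probe sets, the adjustment for the 3′ contrast, no filter, levels coded 0, 1 and 1, and leaving out arrays.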

Additional observations from a re-analysis of the deposited data

Results flagged for a closer look

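The change over DMSO, 5 µM and 10 µM differed between the lines by limma's interaction term at an adjusted p under 0.05 in 92 genes with the Twist line above and 101 with it below the control line. Without any 1 of the control-line arrays the counts were 0 and 0, and 1103, 1971 and 1147 genes had an unadjusted p under 0.05 without the DMSO, 5 µM and 10 µM array, against 4927 with all arrays. Of the 92 and 101 genes, 18 and 25 lay at the floor on all 3 control-line arrays, against 542 of the 12482 genes tested. There the difference of slopes is the Twist slope alone and shows no difference between the lines, so such genes are not listed. The other genes named in the text are given by the Twist slope minus the control-line slope, in log2 units per level. Many of them were named for their Twist-line difference, which enters this value, so the calls are no independent support for it. The differences below 0 were -2.04 in SERTAD4, -1.80 in FRY, -1.77 in FRMD4B, -1.64 in COL8A1, -1.54 in FIGN, -1.43 in LGR4, -1.38 in GBP1, -1.29 in NR2F1, -1.22 in SMARCC2, -1.17 in TET1, -1.15 in LPAR6, -1.12 in L3MBTL3, -0.95 in ANLN and -0.93 in SALL2. The differences above 0 were 2.10 in IFIT1, 1.57 in HSPA6, 1.52 in H2AC6, 1.47 in NFATC2, 1.43 in ZNF16, 1.40 in NGFR, 1.37 in KCNG1, 1.35 in HBEGF, 1.34 in PDE4D and 1.20 in H3C11.

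Probe sets without a gene symbol, which entered no comparison above, also differed. In the Twist line 178 of 3520 measured ones were higher past 2-fold between 10 µM and DMSO (5.06%) and 304 lower (8.64%). In the control line 91 of 3290 were higher (2.77%) and 3 lower (0.091%). The share higher in the control line stands beside 0.209% among its named genes.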

How the results depend on the processing

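The count of higher genes stayed between 692 and 1021 and that of lower genes between 871 and 1033 under the alternatives tried, except that the median over probe sets gave 653 lower genes. The trend calls were less stable. Without a filter on low signals 8 genes rose and 8 fell, and with levels coded 0, 1 and 1 there were 1956 and 2259. Leaving out the Twist 5 µM array or a control-line array gave 0 to 1467 that rose and 0 to 1762 that fell. For the difference between the lines, genes above and below numbered 50 and 53 on the deposited scaling, 204 and 194 with the floor at the 35th percentile, 21 and 22 with it at the 65th, 182 and 181 without cross-matching probe sets, 6 and 5 without a filter, and 1578 and 1770 with levels coded 0, 1 and 1. The median over probe sets gave 59 below, and leaving out arrays gave 0 to 1031 above and 0 to 1192 below. The cause was not tested. There were 160 named genes, and those not measured under a setting were left out there. Among the rest the difference was no longer past 2-fold in 27 under the median over probe sets, in 24 with the contrast adjustment and in 13 with the higher floor. No named difference past 2-fold changed sign where the gene was still measured. The rule for named genes required no measured probe set in the opposite direction, so settings that change the probe set could hardly reverse a sign. With the median over probe sets 11 list medians changed sign: those of G1/S, nuclear receptors (0.04), chromatin regulators (0.16), Notch genes (0.03), mRNA decay (0.03), MAP kinase feedback inhibitors (0.11), TGF-beta genes (0.04), growth factor ligands (0.51), KLF and SP factors (0.26), ER to Golgi genes (0.33) and cilium genes (-0.10). Without cross-matching probe sets 11 did: the BCL2 family (-0.13), the apoptosome list (-0.03), cholesterol synthesis (-0.01), metallothioneins (-0.21), respiratory chain, translation factors (-0.17), tubulins (-0.0033), cilium genes (-0.08), KLF and SP factors (0.12), ligands (0.20) and ER to Golgi genes (0.10). Under each of the other settings 2 to 4 lists did, heat shock genes (-0.01) under both other floors. No paired analysis was possible because each group holds 1 array. Dim genes near the floor carry bounds, and 1 array per group leaves replicate error unknown.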

Other observations

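Histone genes, chosen after their values were seen, were split in the Twist line. Of 25 measured replication-dependent histone genes 5 were higher past 2-fold and 1 lower between 10 µM and DMSO. Over all genes 8.04% were higher and 8.48% lower. The histone median was 0.28, against 0.08 in the control line. H2AC6 read 7.80, 9.44 and 10.83 with DMSO, 5 µM and 10 µM in the Twist line and between 11.40 and 11.68 in the control line. H3C11 differed by 2.26, H2BC21 by 1.86, H2AC25 by 1.74 and the linker histone H1-2 by 1.43, whereas H2BC12 read 10.59 at 10 µM and 11.72 with DMSO. Array values for these genes depend on transcripts that carry a poly(A) tail, since most histone RNA lacks one.

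Of 35 measured genes of the primary cilium 3 were higher (8.57%) and 4 lower (11.4%), near the 8.04% and 8.48% of all genes, and the list median of 0.24 was -0.10 when genes were read by the median of their probe sets. The Bardet-Biedl genes differed in opposite directions, BBS5 at 1.88 and TTC8 at -1.50, which act in the same complex. SPAST, which cuts microtubules, differed by -1.64, and FIGN, a relative of it, read 7.49 at 10 µM and 10.06 with DMSO.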
